A study of Rattus norvegicus with 24 samples.

Results

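Expression of the nuclear-encoded genes of the mitochondrial respiratory chain was examined in bulk RNA sequencing of dorsal skin from Sprague-Dawley rats. Members were the rows of the deposited gene table that lay outside the mitochondrial chromosome, carried a name of the Nduf (classes a, b, c, s and v), Sdh, Uqcr, Cox4 to Cox8 or Atp5 families, and had at least 240 counts summed over the 24 libraries. The names matched 79 rows, of which 70 reached the minimum, out of 23095 genes in the table. The other 9 rows fell below it, and 4 of them had 0 counts. By name, 32 members belonged to complex I, 4 to complex II, 7 to complex III, 12 to complex IV and 15 to complex V.

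Skin was sampled on day 7 after the injection of T-gel, a biodegradable polymer, or of saline as the control. The 4 groups of 6 libraries each were T-gel placed in the dermis (ID gel), saline placed in the dermis (ID saline), T-gel placed under the skin (SC gel) and saline placed under the skin (SC saline). No label gave an age, a sex or a genetic change for any group. The labels also do not say that the 6 libraries of a group came from separate rats, so p-values measure the spread between these samples, which may be technical. Library totals ran between 14024353 and 18821730 counts, and the members' own totals over all libraries ran between 267 and 383159 counts. Levels are given as CPM, the counts scaled to a common library total, with TMM factors that correct that total for differences in composition. Levels of different genes are set against each other only as FPKM, which also divides by gene length. A call means an adjusted p under 0.05 in the quasi-likelihood test of edgeR, adjusted over 14763 genes after Benjamini and Hochberg, and every log2 difference stands with its standard error. SC saline 5 and 6 stood apart from the other libraries of their group: the members without Cox6a2 summed to 9881 and 9750 CPM there, against 6196 to 6845 CPM in SC saline 1 to 4. Many, but not all, results that involve SC saline are therefore also given without these libraries, a choice made after seeing the data. It is an extreme case because it removes the highest member sums. SC values that stand alone include SC saline 5 and 6.

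The respiratory chain sits in the inner mitochondrial membrane. Complex I takes electrons from NADH and complex II takes them from succinate, complex III passes them from ubiquinol to cytochrome c, and complex IV, cytochrome c oxidase, hands them to oxygen. The proton gradient that complexes I, III and IV build up drives complex V, the ATP synthase. Most subunits are encoded in the nucleus and a core set in mitochondrial DNA, and a few complex IV subunits have tissue isoforms. Cox6a2, Cox8b and Cox7a1 are the forms of heart and skeletal muscle, while Cox6a1, Cox8a and Cox7a2 are the widely expressed forms. In skin, oxidative tissue lies mainly in the thin panniculus carnosus muscle beneath the dermis and in hair follicles, glands and the basal epidermis.

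Most members that changed were lower after T-gel, at both sites. In ID gel against ID saline, 40 of the 70 members fell, 3 rose and 27 were not called. Over all genes tested, 37.0% fell and 36.6% rose. The members' median log2 fold change was -0.38, beside -0.01 over all genes tested, and 59 of the 70 members had a negative value. Their CPM ranges did not overlap for 41 members that lay lower in ID gel and for 4 that lay higher, against 27.5% and 29.1% of all genes. In SC gel against SC saline, 43 members fell, 2 rose and 25 were not called, beside 26.1% and 24.7% of all genes. Here the members' median was -0.43, with 66 negative values, and the median of all genes was -0.0039. Ranges did not overlap for 22 members lower in SC gel and 1 higher, against 14.0% and 11.0% of all genes. In tissue with many cell types, fewer cells of a type and less RNA per cell cannot be told apart.

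These counts depend on the scaling, and at the SC site on which control libraries enter. In the authors' FPKM values, which use library totals without TMM factors, the median of all genes was shifted by -0.10 at the ID site and by 0.19 at the SC site (log2(FPKM + 1) scale, limma). On that scale 50 of 69 members tested fell and 3 rose at the ID site, while at the SC site 27 fell and 4 rose, with member medians of -0.53 and -0.15. Of all genes on that scale, 41.6% fell and 31.1% rose at the ID site, and 15.0% fell and 43.9% rose at the SC site. Without SC saline 5 and 6, 24 members fell and 9 rose in SC gel against SC saline, and the members' median was -0.0009, beside 0.12 over all genes, of which 17.0% fell and 30.3% rose. The 24 that fell were all among the 43, and the 9 that rose were Cox6a1, Atp5if1, Atp5mc3, Atp5mg, Cox4i1, Cox7a2l, Cox7b, Ndufa7 and Ndufs5. The row named Ndufa7 carries the Entrez number of another gene, Cd320. Of the 70 members, 34 fell at both sites and 2, Cox6a1 and Atp5if1, rose at both. No such joint count was made over all genes, of which 37.0% fell at the ID site and 26.1% at the SC site. Another 6 fell at the ID site alone, 9 at the SC site alone and Cox4i2 rose at the ID site alone by these calls, and 18 were called at neither site. SC calls made without SC saline 5 and 6 were also set beside the ID calls of the fit to all 24 libraries. By these, 20 members fell at both sites, among them Ndufs1, Sdha, Sdhc, Uqcrc2, Atp5f1a and Atp5f1b. The ID and SC contrasts compare different libraries of both gel and saline. Their calls are not independent, since 1 model of all 24 libraries gave both, with a shared estimate of the spread. With the ID groups fitted alone, 50 members fell at the ID site.

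**Figure D1:**
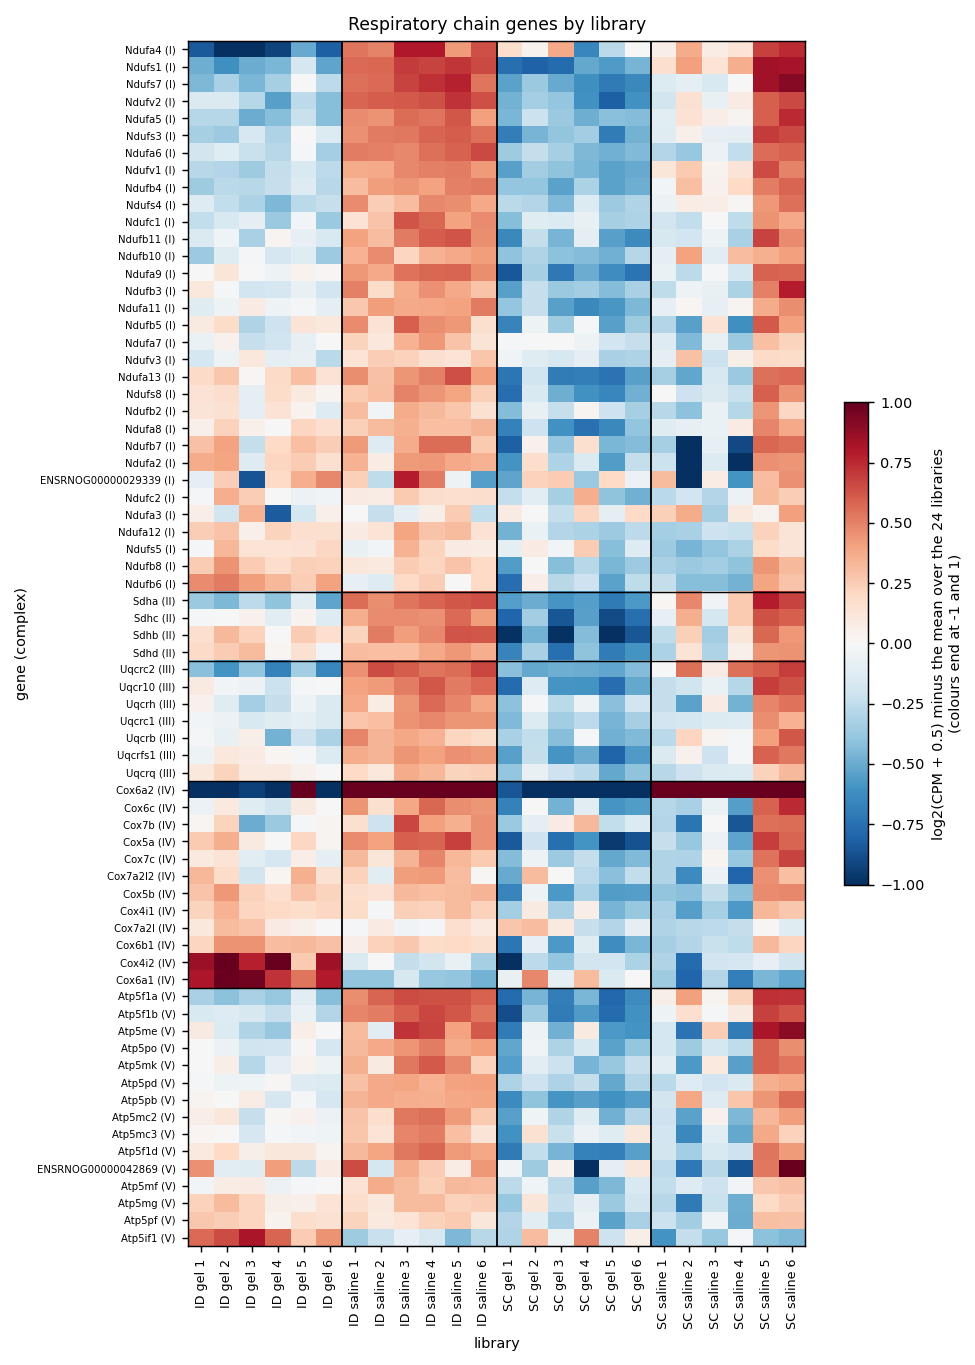
Each row is a member, with its complex in brackets and rows ordered within a complex by the ID effect, and each column is a library. Colour gives log2(CPM + 0.5) minus the gene's mean over the 24 libraries, red above and blue below, with colours ending at -1 and 1. ID saline is red in most rows, SC gel is blue in most rows, and SC saline 5 and 6 resemble ID saline more than they resemble SC saline 1 to 4. Cox6a1, Cox4i2 and Atp5if1 run the other way in ID gel.

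The promoters of members that fell together are shown because 34 members fell at both sites. That number was 20 when the SC calls were made without SC saline 5 and 6. The share of all genes that fell at both sites was not determined. RefSeq promoter windows of 300 bases on build GRCr8, 250 before and 50 after the annotated start, were matched for 60 of the 70 members, and motifs were searched on both strands. The letters GCGCANGCG, the core of the NRF1 element known from respiratory chain promoters, were present in 16 member windows (26.7%), against 6.26% of 27457 windows of all genes. The YY1 core AAGATGGC was present in 13 (21.7%, against 3.44%), and the GABP/ETS core CCGGAAGT in 7 (11.7%, against 4.01%). In the bases before the start alone, NRF1 letters were in 23.3% of member windows against 5.53% of all, and YY1 letters in 3.33% against 1.69%. Between the 31 members lower at both sites and the other 29, NRF1 letters were in 29.0% and 24.1%, YY1 letters in 25.8% and 17.2%, and GABP/ETS letters in 6.45% and 17.2%. In the bases before the start alone these shares were 25.8% and 20.7% for NRF1, 0% and 6.90% for YY1 and 6.45% and 17.2% for GABP/ETS. A match describes letters and is neither a bound site nor a cause, and a missing match concerns these letters and this window only. Given here are the 150 bases before the start of 4 members, from complexes II, III, V and I. They had the highest mean CPM among members that fell at both sites and hold NRF1 letters in those bases. NRF1 letters and, in Atp5po, the E-box CAGCTG are in capitals. Of these, Uqcrc1 and Atp5po lost their SC call without SC saline 5 and 6.
Sdha, chr1:30764403-30764552, plus strand: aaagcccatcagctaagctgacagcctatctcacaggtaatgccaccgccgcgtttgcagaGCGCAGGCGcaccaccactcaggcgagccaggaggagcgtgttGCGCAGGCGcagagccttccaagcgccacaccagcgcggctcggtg
Uqcrc1, chr8:118468073-118468222, plus strand: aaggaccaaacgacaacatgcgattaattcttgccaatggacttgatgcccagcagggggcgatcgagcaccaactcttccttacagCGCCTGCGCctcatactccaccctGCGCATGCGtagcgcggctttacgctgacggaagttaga
Atp5po, chr11:44657484-44657633, minus strand: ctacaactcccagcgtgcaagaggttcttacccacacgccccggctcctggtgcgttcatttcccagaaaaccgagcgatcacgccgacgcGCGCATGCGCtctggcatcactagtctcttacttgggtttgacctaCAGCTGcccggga
Ndufa5, chr4:53971236-53971385, minus strand: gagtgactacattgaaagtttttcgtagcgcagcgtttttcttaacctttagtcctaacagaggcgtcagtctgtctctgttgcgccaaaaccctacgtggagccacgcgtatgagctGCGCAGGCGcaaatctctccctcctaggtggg
In Sdha the matches begin 89 and 46 bases before the start. Uqcrc1 has a match on the minus strand beginning 63 bases before the start and a match on the plus strand at 39. In Atp5po, matches on the 2 strands overlap at 59 and 58, and the E-box lies at 13. The Ndufa5 match begins 32 bases before the start.

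Complex I members fell in 18 of 32 cases at the ID site, with none higher and a median of -0.41. At the SC site 19 fell, with none higher and a median of -0.49, and without SC saline 5 and 6 the numbers were 13 lower, 2 higher and -0.07. Beside these counts, 37.0% of all genes fell and 36.6% rose at the ID site, and 26.1% fell and 24.7% rose at the SC site. Without SC saline 5 and 6, 2547 of 15008 genes fell and 4548 rose at the SC site. Ndufs1, the largest subunit of the NADH-oxidising arm, had a lowest, median and highest level of 69.6, 75.9 and 94.9 CPM in ID gel, against 158, 170 and 176 CPM in ID saline. The levels were 60.8, 67.5 and 77.3 CPM in SC gel, against 118, 140 and 191 CPM in SC saline. All gel libraries lay below all saline libraries of their site. The log2 fold change was -1.11 ± 0.11 at the ID site (adjusted p = 4.51e-09, edgeR) and -1.13 ± 0.11 at the SC site (adjusted p = 3.4e-08). Other electron-transfer subunits fell too: Ndufv2 by 0.93 and 0.78, Ndufs7 by 0.95 and 0.88, Ndufs3 by 0.76 and 0.75, and Ndufv1, which carries the FMN cofactor, by 0.71 and 0.77 on the log2 scale in ID gel and SC gel. Without SC saline 5 and 6 their SC values were nearer 0, at -0.40, -0.34, -0.32 and -0.47 in that order, all still called. Over 25 other settings, the set without SC saline 5 and 6 among them, the SC value of Ndufs1 stayed between -1.30 and -0.79 and kept its call.

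Ndufa4 carries a complex I name, although its protein is now placed with complex IV. Its level in ID gel was 16.8, 21.2 and 27.7 CPM (lowest, median and highest), against 53.3, 59.8 and 69.4 CPM in ID saline. In SC gel it was 24.9, 40.2 and 51.5 CPM, against 41.4, 47.5 and 66.7 CPM in SC saline. ID gel lay wholly below ID saline, while the SC groups overlapped. Ndufa4 fell by 1.54 ± 0.16 at the ID site (adjusted p = 9.17e-09). Its SC value of -0.40 ± 0.16 (adjusted p = 0.0371) lost its call in 16 of 25 other settings, among them without any of SC saline 2, 5 and 6 or SC gel 2, 4, 5 and 6. The difference between the site effects was -1.14 ± 0.22 (adjusted p = 0.000135). The related Ndufa4l2, a hypoxia-inducible paralogue outside the name rule, ran the other way. It had 65.8, 95.2 and 129 CPM in ID gel, against 19.2, 25.1 and 27.5 CPM in ID saline, and rose by 2.01 ± 0.16 (adjusted p = 1.25e-10). In SC gel it had 35.2, 37.7 and 41.6 CPM, against 18.3, 27.0 and 38.5 CPM in SC saline, with a log2 fold change of 0.46 ± 0.16 (adjusted p = 0.0175).

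Other accessory subunits of complex I differed in how far they moved. Ndufb6, a membrane-arm subunit, had 17.2, 19.3 and 20.9 CPM in ID gel, against 13.2, 15.5 and 17.2 CPM in ID saline. The 2 groups touched at 17.2 CPM without overlapping, and the log2 fold change was 0.33 ± 0.15 (adjusted p = 0.0516). At the SC site it was -0.21 ± 0.15 (adjusted p = 0.256), and the site effects differed by 0.54 ± 0.21 (adjusted p = 0.0351). Ndufs5 was 0.05 ± 0.12 at the ID site and 0.14 ± 0.12 at the SC site (adjusted p = 0.696 and 0.347). Ndufc1 fell by 0.64 ± 0.12 at the ID site (adjusted p = 5.35e-05) and had -0.29 ± 0.12 at the SC site (adjusted p = 0.0545). Ndufa3 was low in all groups, with median levels of 1.74 CPM in ID gel, 1.76 in ID saline, 1.90 in SC gel and 2.12 in SC saline, and was called in no comparison.

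Complex II is succinate dehydrogenase, and all 4 of its subunits fell in SC gel, 2 of them also in ID gel. Over all genes, 26.1% fell in SC gel and 37.0% in ID gel. Sdha, the flavin-bearing subunit that oxidises succinate, had 128, 141 and 172 CPM in ID gel, against 255, 275 and 289 CPM in ID saline. It had 113, 125 and 131 CPM in SC gel, against 181, 240 and 320 CPM in SC saline. Neither pair overlapped, and Sdha fell by 0.92 ± 0.11 (adjusted p = 1.09e-07) and by 0.98 ± 0.11 (adjusted p = 2.74e-07). Sdhb, the iron-sulfur subunit, had 79.8, 91.9 and 100 CPM in ID gel, against 93.4, 113 and 124 CPM in ID saline. Its SC values were 38.0, 42.0 and 59.2 CPM in SC gel, against 62.9, 90.7 and 119 CPM in SC saline. Sdhb overlapped at the ID site (-0.29 ± 0.14, adjusted p = 0.0584) and did not at the SC site, where it fell by 0.95 ± 0.14 (adjusted p = 6.61e-06). For the membrane anchors the log2 fold changes were -0.49 ± 0.12 and -0.99 ± 0.12 for Sdhc and -0.19 ± 0.12 and -0.68 ± 0.12 for Sdhd, ID before SC. Of these, only the ID value of Sdhd missed the threshold (adjusted p = 0.138). At the ID site Sdhb and Sdhd were called lower in 8 and 4 of 24 other settings, among them the ID groups fitted alone. Both ID values turned positive with the saline groups exchanged between sites. The site effects differed by 0.66 ± 0.20 for Sdhb, 0.50 ± 0.16 for Sdhc and 0.49 ± 0.16 for Sdhd (adjusted p = 0.00655, 0.0124 and 0.0148). All 3 differences lost their call in the FPKM fits and with gel replicates 4 to 6 alone, that of Sdhc also with gel replicates 1 to 3 alone, and those of Sdhc and Sdhd also without SC saline 2. Without SC saline 5 and 6 none of the 3 differences was called, at 0.31 ± 0.18 for Sdhb, 0.17 ± 0.14 for Sdhc and 0.14 ± 0.14 for Sdhd (adjusted p = 0.159, 0.335 and 0.407). The falls of the 4 subunits in SC gel held there, at -0.65 ± 0.09 for Sdha, -0.61 ± 0.13 for Sdhb, -0.67 ± 0.11 for Sdhc and -0.34 ± 0.10 for Sdhd.

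Complex III fell in 6 of 7 members at each site, with medians of -0.50 at the ID site and -0.51 at the SC site. Without SC saline 5 and 6 the SC calls were 2, Uqcrc2 (-0.67 ± 0.10) and Uqcrfs1 (-0.33 ± 0.08), with a median of -0.19. All genes had 37.0% lower at the ID site and 26.1% at the SC site, where 2547 of 15008 fell without SC saline 5 and 6. Uqcrc2, a core subunit, had 83.4, 93.9 and 105 CPM in ID gel, against 183, 200 and 213 CPM in ID saline. It had 92.7, 94.7 and 99.5 CPM in SC gel, against 133, 196 and 215 CPM in SC saline. Neither pair overlapped, and it fell by 1.09 ± 0.10 (adjusted p = 8.12e-10) and by 0.92 ± 0.10 (adjusted p = 1.12e-07). Uqcrfs1, the Rieske iron-sulfur protein and the member of complex III with the highest mean CPM, fell by 0.41 ± 0.12 and by 0.70 ± 0.12 (adjusted p = 0.00294 and 2.78e-05). The member not called was Uqcrq at the ID site (-0.15 ± 0.09, adjusted p = 0.146) and Uqcrh at the SC site (-0.26 ± 0.15, adjusted p = 0.159). Uqcrq fell at the SC site by 0.29 ± 0.10 (adjusted p = 0.0145), a call lost without SC saline 2, 5 or 6, without SC gel 1, 5 or 6, with gel replicates 1 to 3 alone and in the FPKM fits, and its value was 0.02 ± 0.08 without both SC saline 5 and 6. Uqcrh fell by 0.54 ± 0.15 at the ID site (adjusted p = 0.00287).

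Complex V fell in 11 of 15 members at the ID site and in 8 at the SC site, with medians of -0.38 at both. At the SC site 4 fell and 3 rose without SC saline 5 and 6, with a median of 0.06. All genes had 37.0% lower at the ID site and 26.1% at the SC site. Without SC saline 5 and 6, 2547 of 15008 fell and 4548 rose there. Atp5f1b, the catalytic beta subunit and the member with the highest mean CPM of all, had 785, 863 and 922 CPM in ID gel, against 1352, 1427 and 1531 CPM in ID saline. It had 521, 613 and 750 CPM in SC gel, against 931, 1053 and 1547 CPM in SC saline. The groups did not overlap at either site, and Atp5f1b fell by 0.74 ± 0.12 (adjusted p = 7.29e-06) and by 0.92 ± 0.12 (adjusted p = 1.71e-06). The alpha subunit Atp5f1a fell by 0.92 ± 0.11 and by 1.02 ± 0.11 (adjusted p = 1.54e-07 and 2.32e-07). Without SC saline 5 and 6 the SC values were -0.56 ± 0.10 for Atp5f1b and -0.68 ± 0.10 for Atp5f1a, both still called. Atp5if1, which encodes the inhibitor that blocks ATP hydrolysis by the synthase, rose instead. Its level was 109, 136 and 161 CPM in ID gel, against 66.9, 76.7 and 86.4 CPM in ID saline. The SC values were 74.3, 91.6 and 129 CPM in SC gel, against 60.1, 69.3 and 90.0 CPM in SC saline. It lay wholly above the saline libraries at the ID site and overlapped them at the SC site, with log2 fold changes of 0.82 ± 0.12 (adjusted p = 2.23e-06) and 0.42 ± 0.12 (adjusted p = 0.00635).

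**Figure D2:**
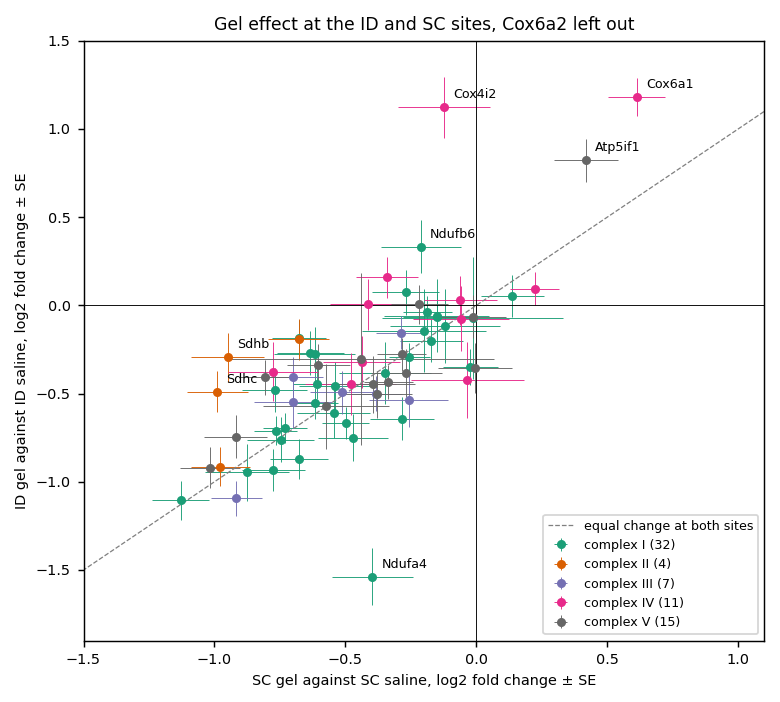
Each point is a member without Cox6a2, with its log2 fold change in SC gel against SC saline on the horizontal axis and in ID gel against ID saline on the vertical axis, and bars give 1 standard error. Most points of complexes I, II, III and V lie in the lower left. Ndufa4 lies far below the dashed line of equal change (-1.54 at the ID site, -0.40 at the SC site), Cox4i2 and Cox6a1 lie far above it, and Sdhb, Sdhc and Ndufb6 lie above it.

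Complex IV did not follow the other complexes at the ID site. Of its 12 members, 3 fell and 2 rose in ID gel against ID saline, with a median of -0.03, and without Cox6a2 the median was 0.0056. On the log2(FPKM + 1) scale 5 fell and 2 rose, with a median of -0.18. Of all genes, 37.0% fell and 36.6% rose by edgeR, and 5523 of 13261 fell and 4128 rose on the log2(FPKM + 1) scale. The members' summed level was 1230 to 1440 CPM in ID gel, against 1188 to 1374 CPM in ID saline, Cox6a2 left out. Over the same libraries the sum of complex I was 1380 to 1505 CPM in ID gel, against 1922 to 2130 CPM in ID saline. Complex V summed to 2683 to 2967 CPM in ID gel, against 3915 to 4381 CPM in ID saline. The complex IV sums overlapped, and those of complexes I and V did not. At the SC site 6 complex IV members fell and 1 rose, with a median of -0.23, and without SC saline 5 and 6 there were 1 lower and 4 higher, with a median of 0.08. All genes had 26.1% lower and 24.7% higher there. Without SC saline 5 and 6, 2547 of 15008 genes were lower and 4548 higher. Cox4i1, the widely expressed form of the regulatory subunit IV and the member of the complex with the highest mean CPM, had 353, 362 and 399 CPM in ID gel, against 310, 366 and 389 CPM in ID saline. Its log2 fold changes were 0.03 ± 0.14 at the ID site and -0.06 ± 0.14 at the SC site (adjusted p = 0.858 and 0.740), and both signs turned under some settings. Cox5a, which binds Cox4 in the holoenzyme, fell by 0.78 ± 0.17 at the SC site (adjusted p = 0.000602), a call lost without SC saline 5 and 6 (-0.27 ± 0.12, adjusted p = 0.0819). Its ID value of -0.38 ± 0.17 (adjusted p = 0.0489) lost its call without any 1 of the 12 ID libraries other than ID gel 2. Cox6c fell by 0.45 ± 0.17 and by 0.48 ± 0.17 (adjusted p = 0.0248 and 0.0246), and the ID call was lost with gel replicates 1 to 3 or 4 to 6 alone and with the saline groups exchanged between sites (adjusted p up to 0.519). The SC call was lost with those replicate sets too, with the SC groups fitted alone, in the FPKM fits and without any 1 of SC saline 2, 5 and 6 and SC gel 1, 3, 5 and 6. Without both SC saline 5 and 6 Cox6c was 0.05 ± 0.12 at the SC site (adjusted p = 0.765).

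Cox6a2, the muscle form of subunit VIa, showed the widest change of any member. In ID gel its level was 10.05, 0.187, 10.9, 0.370, 72.6 and 0.0598 CPM in libraries 1 to 6, against 212, 240 and 289 CPM (lowest, median and highest) in ID saline. In SC gel it was 11.6, 0.0569, 2.84, 0, 0 and 0.114 CPM, against 113, 242 and 317 CPM in SC saline. All gel libraries lay below all saline libraries, and the gel libraries of a site differed widely among themselves. Cox6a2 fell by 3.96 ± 1.04 at the ID site (adjusted p = 0.00158) and by 6.44 ± 1.20 at the SC site (adjusted p = 0.000108). The fitted SC value rests on libraries with 0 or few counts, and it was -5.45 with SC gel 1 to 3 alone and -12.17 with SC gel 4 to 6 alone. Without SC saline 5 and 6 it was -6.04 ± 1.25 (adjusted p = 0.000522, edgeR). The difference between the site effects was not called (2.48 ± 1.40, adjusted p = 0.135). The 30-base windows around its MEF2 letters CTAAAAATA, which 0.517% of all windows hold, and around its E-box CAGCTG, which 15.1% hold, are given because both motifs are known from muscle genes. Both were read from RefSeq on GRCr8, lie 50 and 107 bases before the start used for the window, and fall inside the annotated span of Cox6a2 itself.
Cox6a2, chr1:192219747-192219776, minus strand: gagaaagtccCTAAAAATAgccatccatgt
Cox6a2, chr1:192219806-192219835, minus strand: ggcacattgcatCAGCTGccagaagaggat
Among the 60 matched member windows, MEF2 letters were found in that of Cox6a2 and in no other, a share of 1.67%.

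The partner Cox6a1, the widely expressed form, went the other way. It had 95.1, 114 and 130 CPM in ID gel, against 46.9, 49.6 and 58.5 CPM in ID saline. It had 59.2, 63.8 and 91.5 CPM in SC gel, against 37.5, 46.5 and 53.2 CPM in SC saline. No gel library overlapped the saline libraries of its site. Cox6a1 rose by 1.18 ± 0.11 (adjusted p = 1.26e-09) and by 0.61 ± 0.11 (adjusted p = 6.18e-05), and the site effects differed by 0.57 ± 0.15 (adjusted p = 0.00301). That difference was not called in the FPKM fits, at 0.19 ± 0.17 with either pseudocount (adjusted p = 0.369 and 0.375), and held its call in the other 34 settings tried. Per length, in FPKM, Cox6a2 made up 0.0705, 5.38 and 50.6% (lowest, median and highest) of Cox6a2 plus Cox6a1 in ID gel, against 84.3, 86.5 and 89.2% in ID saline. It made up 0, 0.158 and 20.1% in SC gel, against 74.0, 88.3 and 90.5% in SC saline. The sum of the 2 forms was 150 to 273 FPKM in ID gel, against 508 to 669 FPKM in ID saline, and 104 to 162 FPKM in SC gel, against 330 to 688 FPKM in SC saline.

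Cox7a1, the muscle form of subunit VIIa, had 202 counts in all and so was not a member. Its median level was 0.219 CPM in ID gel, 0.606 in ID saline, 0.305 in SC gel and 0.907 in SC saline. It fell by 1.47 ± 0.39 at the SC site (adjusted p = 0.00333), and its ID value of -0.92 ± 0.42 (adjusted p = 0.0493) lost its call without 9 of the 12 ID libraries taken 1 at a time. Its widely expressed partner stands in the file under the name Cox7a2l2 with the Entrez number of Cox7a2, and was called at neither site (-0.08 ± 0.18 and -0.06 ± 0.18, adjusted p = 0.720 and 0.809). Cox7a1 was at most 1.65% of the 2 forms in FPKM in any library. Cox8a and Cox8b were not analysed here.

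Cox4i2, the form of subunit IV known from lung and from cells under low oxygen, rose in ID gel. It had 5.55, 8.62 and 11.7 CPM in ID gel, against 3.50, 3.99 and 4.52 CPM in ID saline. It had 1.92, 3.62 and 3.94 CPM in SC gel, against 2.45, 3.93 and 4.27 CPM in SC saline. ID gel lay wholly above ID saline, and the SC groups overlapped. The log2 fold change was 1.12 ± 0.17 at the ID site (adjusted p = 2.95e-06) and -0.12 ± 0.17 at the SC site (adjusted p = 0.579). The site effects differed by 1.25 ± 0.24 (adjusted p = 0.000148). Per length, Cox4i2 was 3.59 to 6.50% of Cox4i2 plus Cox4i1 in ID gel, against 2.21 to 3.33% in ID saline.

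**Figure D3:**
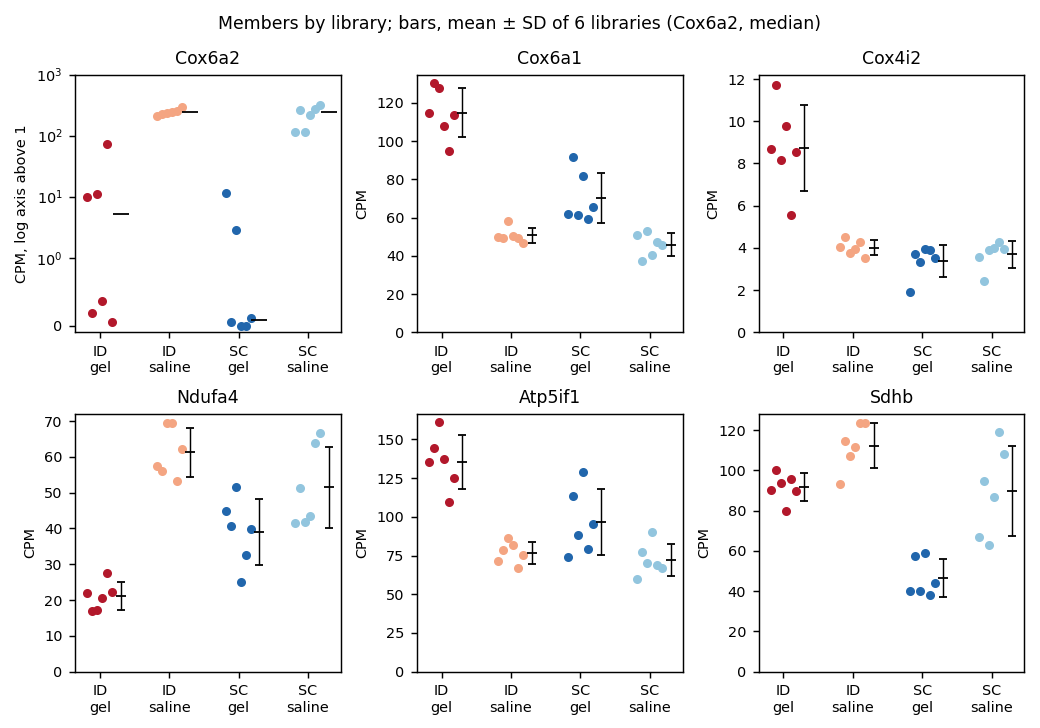
Each panel shows 1 gene, each point 1 library in CPM, and the bars the mean ± SD of 6 libraries, except for Cox6a2, whose bar is the median on an axis that is logarithmic above 1 CPM. Cox6a2 is at 113 CPM or more in every saline library and at 72.6 CPM or less in every gel library. Cox6a1, Cox4i2 and Atp5if1 are highest in ID gel, Ndufa4 is lowest in ID gel, and Sdhb is lowest in SC gel.

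Between gel and saline groups, markers of skeletal muscle fell as most members did. Of 28 markers tested, 27 fell in ID gel against ID saline and 28 fell in SC gel against SC saline. Over all genes these shares were 37.0% and 26.1%. Their summed level was 22.8 to 25075 CPM in ID gel, against 73664 to 93885 CPM in ID saline, and 27.7 to 2889 CPM in SC gel, against 42283 to 105306 CPM in SC saline. The members without Cox6a2 summed to 6380 to 7025 CPM in ID gel, against 8718 to 9548 CPM in ID saline, and to 4609 to 6043 CPM in SC gel, against 6196 to 9881 CPM in SC saline. Neither pair of member sums overlapped. In ID gel, library 6 had the least muscle RNA (22.8 CPM) and the lowest member sum (6380 CPM), and library 5 had the most muscle RNA (25075 CPM) and the second highest member sum (6927 CPM). The highest member sum was that of ID gel 2 (7025 CPM), which had 70.3 CPM of muscle RNA. In SC gel, library 1 had the most muscle RNA (2889 CPM) and a member sum of 4709 CPM. SC gel 2, with 28.2 CPM of muscle RNA, had the highest member sum of its group (6043 CPM). In SC saline, libraries 1 and 3 had the lowest muscle sums (43406 and 42283 CPM) and also the lowest member sums (6196 and 6441 CPM). SC saline 6 had the highest muscle sum (105306 CPM) and a member sum of 9750 CPM, while SC saline 2, with a muscle sum of 104815 CPM, had a member sum of 6845 CPM. The part of muscle RNA in the members' change was not tested.

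**Figure D4:**
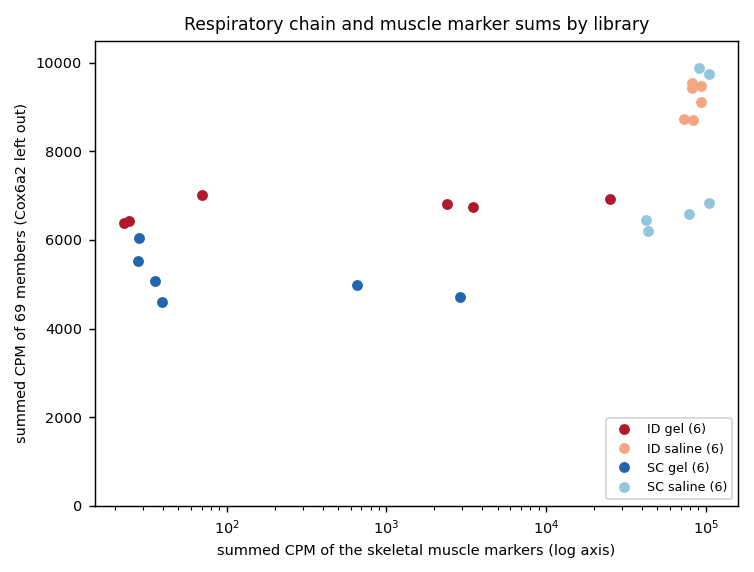
Each point is a library, with the summed CPM of 28 skeletal muscle markers on a logarithmic horizontal axis and the summed CPM of the 69 members without Cox6a2 on the vertical axis. ID gel spans 22.8 to 25075 CPM of muscle markers at member sums of 6380 to 7025 CPM. SC saline 5 and 6 lie with ID saline at 8718 CPM of member RNA or more, and SC saline 1 to 4 lie between 6196 and 6845 CPM.

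Markers of other cell types were counted as well, and their part in the members' change was not tested. Over all genes, 37.0% fell and 36.6% rose at the ID site, and 26.1% fell and 24.7% rose at the SC site. Macrophage markers rose in 14 of 17 cases at the ID site with none lower, and in 10 with 1 lower at the SC site. Their sum was 29279 to 42706 CPM in ID gel, against 1285 to 2931 CPM in ID saline, and 3231 to 15021 CPM in SC gel, against 1856 to 2453 CPM in SC saline. Epidermal keratinocyte markers fell in 8 of 8 cases at the ID site, while at the SC site 6 rose and 1 fell. White adipocyte markers numbered 1 higher and 8 lower of 12 at the ID site, and 5 higher and 1 lower at the SC site. All 5 brown adipocyte markers tested fell at the ID site, and at the SC site 2 rose and 2 fell. Smooth muscle markers fell in 8 of 8 and 6 of 8 cases with none higher. Dermal fibroblast markers counted 4 higher and 2 lower of 10 at the ID site and 1 higher and 4 lower at the SC site, and endothelial markers 2 higher and 5 lower of 8, and 0 higher and 1 lower. On the log2(FPKM + 1) scale the fibroblast counts at the SC site were 3 and 3 and the endothelial counts 2 and 0. On that scale 5827 of 13261 genes rose and 1986 fell at the SC site. No list had a marker at 0 counts in all libraries.

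The gel effect differed between the sites for few members. The difference, ID effect minus SC effect, was called higher for 9 members and lower for 1, Ndufa4, beside 32.8% and 23.0% of all genes. Its median was 0.06 over the members and 0.12 over all genes. Besides those already named, the difference was called for Ndufa8 (0.49 ± 0.15, adjusted p = 0.00625), Cox6b1 (0.50 ± 0.17, adjusted p = 0.0133) and Atp5pb (0.40 ± 0.14, adjusted p = 0.0175). In each of these the SC effect was the more negative, and without SC saline 5 and 6 these 3 and that of Ndufb6 were not called (adjusted p = 0.261, 0.370, 0.465 and 0.632). None of these 4 was called in the FPKM fits, and those of Cox6b1, Atp5pb and Ndufb6 were also lost without SC saline 2. The Atp5pb difference was lost without SC saline 5 or 6 alone as well, and the Ndufb6 difference was lost in 22 of 36 other settings. Cox6b1 was 0.16 ± 0.12 at the ID site (adjusted p = 0.226) and fell by 0.34 ± 0.12 at the SC site (adjusted p = 0.0181), a call lost without SC saline 5 and 6 (-0.0049 ± 0.10, adjusted p = 0.974). The split of calls turned with the scaling and with the controls. On the log2(FPKM + 1) scale, where the median of all genes was -0.20, 1 member was called higher and 30 of 69 lower, beside 18.1% and 38.8% of all genes, and without SC saline 5 and 6 a total of 33 were called lower and 2 higher, Cox4i2 (1.02 ± 0.27) and Cox6a1 (0.42 ± 0.17), beside 28.1% and 24.8% of all genes. Leaving out SC saline 2 gave 4 higher and 3 lower, and leaving out SC saline 5 or 6 gave 5 or 6 lower. Leaving out ID saline 1 or SC gel 1 gave 3 lower, and leaving out any 1 of ID saline 2 and 6, ID gel 2, 5 and 6 and SC gel 5 and 6 gave 2.

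In ID gel against SC gel, 34 of 70 members were called higher and 1, Ndufa4, lower, beside 40.1% and 28.0% of all genes, and the median was 0.31 over the members and 0.11 over all genes. The largest values other than that of Cox6a2 were 1.37 ± 0.17 for Cox4i2 (adjusted p = 2.64e-07) and 0.98 ± 0.14 for Sdhb (adjusted p = 1.6e-06). For Ndufa4 it was -0.89 ± 0.16 (adjusted p = 3.18e-05), a call lost with gel replicates 4 to 6 alone (adjusted p = 0.0538). Cox6a2 was 2.65 ± 1.07 (adjusted p = 0.0318), a call lost in 12 of 22 other settings, among them without ID gel 5 or any 1 of SC gel 2 to 6. On the log2(FPKM + 1) scale, where the median of all genes was -0.16, 13 of 69 members were called higher and 7 lower, beside 22.8% and 43.2% of all genes, with a median of -0.02.

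The saline groups differed in the members only weakly by calls. In ID saline against SC saline, 2 members were called higher, Ndufa12 (0.34 ± 0.09, adjusted p = 0.0458) and Atp5pd (0.35 ± 0.09, adjusted p = 0.0445), and 0 lower, beside 1.67% and 1.54% of all genes. At an unadjusted p under 0.05, 37 members were higher, beside 11.1% of all genes. The members' median was 0.27, beside 0.0058 over all genes, and 69 of the 70 values were positive. The exception was Ndufa3 (-0.24 ± 0.20, adjusted p = 0.524), and the largest values were those of Ndufa2 (0.48 ± 0.21, adjusted p = 0.186) and Ndufa6 (0.47 ± 0.13, adjusted p = 0.0504). On the log2(FPKM + 1) scale 16 members were called higher, beside 3.54% of all genes. Without SC saline 5 the count was 23 (3.06% of all genes), without SC saline 6 it was 18 (2.42%), without both it was 55 (6.24%), and without any 1 of SC saline 1 to 4 or ID saline 2 to 6 it was 0.

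Short genes as a class were lower in some SC saline libraries. Over 340 tested genes of up to 700 bases and a mean above 1 CPM, the median log2 difference from the ID saline mean was -0.28, -0.43, -0.07 and -0.42 in SC saline 1 to 4, and -0.04 and -0.11 in SC saline 5 and 6. For the 19 members that short it was -0.53, -0.73, -0.40 and -0.71 in SC saline 1 to 4, and 0.14 and 0.09 in SC saline 5 and 6. Long members were lower there too. For the 28 members of more than 1500 bases it was -0.55, -0.34, -0.51 and -0.43 in SC saline 1 to 4. In SC saline 5 and 6 these long members had 0.09 and 0.10. All tested genes of more than 1500 bases had 0.03, 0.03, 0.02 and 0.04 in SC saline 1 to 4. Among members of more than 1500 bases, 20 of 28 fell at the ID site (median -0.47) and 22 fell at the SC site (median -0.62), with none higher, against 37.0% and 27.5% lower among all tested genes of that length. Among the 19 shortest, 8 fell and 2 rose at each site (medians -0.15 and -0.27). Among all tested genes that short, 35.3% fell and 18.2% rose at the ID site, and 15.9% fell and 35.6% rose at the SC site. The part of gene length in the members' change was not tested.

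The mtDNA-encoded subunits, which join the members in complexes I, III, IV and V, also fell. Of 13, 10 fell at the ID site and 11 at the SC site, with none higher, medians of -0.59 and -0.95 and ranges of -0.84 to 0.60 and -1.27 to -0.24. At the SC site 10 fell without SC saline 5 and 6, with a median of -0.84. All genes had 37.0% lower and 36.6% higher at the ID site, and 26.1% and 24.7% at the SC site. Without SC saline 5 and 6, 2547 of 15008 genes fell and 4548 rose there. They took up 3.41 to 4.90% of all counts in ID gel, against 5.32 to 7.36% in ID saline, and 3.68 to 5.03% in SC gel, against 4.58 to 10.03% in SC saline. Among 8 subunits and partners outside the name rule, 5 fell and 2 rose at the ID site, and 4 fell and 2 rose at the SC site. Cycs, the cytochrome c that links complexes III and IV, fell by 0.93 ± 0.12 and by 1.16 ± 0.12 (adjusted p = 2.2e-07 and 7.14e-08). Ndufab1, the acyl carrier protein bound to complex I, fell by 0.98 ± 0.14 and by 0.82 ± 0.14. Higd1a, a hypoxia-induced protein that binds complex IV, rose by 1.63 ± 0.16 and by 0.59 ± 0.15 (adjusted p = 2.13e-09 and 0.0025).

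Assembly factors were split. Of 42 tested, 20 fell and 9 rose at the ID site, and 22 fell and 2 rose at the SC site, where the split was 11 and 7 on the log2(FPKM + 1) scale and 10 and 8 without SC saline 5 and 6. All genes together had 37.0% lower and 36.6% higher at the ID site, and 26.1% and 24.7% at the SC site. There, 1986 of 13261 genes fell and 5827 rose on the log2(FPKM + 1) scale. Leaving out SC saline 5 and 6 gave 2547 of 15008 genes lower and 4548 higher at that site. Ndufaf7, a methyltransferase for complex I assembly, rose by 2.07 ± 0.16 at the ID site (adjusted p = 7.39e-11) and by 0.60 ± 0.16 at the SC site (adjusted p = 0.00286). Tmem70, needed for ATP synthase assembly, fell by 1.58 ± 0.12 and by 0.49 ± 0.12 (adjusted p = 6.74e-11 and 0.00152), the second call being lost on the log2(FPKM + 1) scale (adjusted p = 0.119) and without SC saline 5 and 6 (adjusted p = 0.191). Acad9, which assembles complex I and also resembles fatty acid dehydrogenases, fell by 0.95 ± 0.12 at the ID site and rose by 0.86 ± 0.12 at the SC site (difference -1.81 ± 0.16, adjusted p = 1.62e-08). Taco1, a translational activator for Mt-co1, fell by 0.81 ± 0.15 and by 1.21 ± 0.15 (adjusted p = 4.16e-05 and 8.68e-07).

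Of 20 regulators of mitochondrial gene expression, 9 fell and 5 rose at the ID site, beside 37.0% and 36.6% of all genes. At the SC site 9 fell and 1 rose, beside 26.1% and 24.7%. The log2(FPKM + 1) scale gave 5 lower and 6 higher there, beside 1986 and 5827 of 13261 genes. Esrrg, an orphan nuclear receptor of oxidative muscle, had 0, 0.0658 and 0.588 CPM in ID gel, against 5.18, 6.77 and 9.10 CPM in ID saline. It fell by 5.48 ± 0.53 at the ID site and by 3.21 ± 0.41 at the SC site (adjusted p = 2.44e-09 and 1.2e-06). Ppard rose by 0.54 ± 0.11 at the ID site (adjusted p = 0.000138), and Polg2, an accessory subunit of the mtDNA polymerase, rose by 0.43 ± 0.15 at the SC site (adjusted p = 0.0174), a call lost with limma voom and with gel replicates 4 to 6 alone (adjusted p up to 0.272).

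The neighbouring mitochondrial pathways were described with the same counts. Of all genes, 37.0% fell and 36.6% rose at the ID site, and 26.1% and 24.7% at the SC site. Of 23 tricarboxylic acid cycle and pyruvate dehydrogenase genes, 18 fell and 3 rose at the ID site, and 18 fell and 1 rose at the SC site, where 13 fell and 3 rose without SC saline 5 and 6. Pdk4, a kinase that shuts off pyruvate dehydrogenase, fell by 4.39 ± 0.64 and by 3.25 ± 0.61 (adjusted p = 1.64e-06 and 0.000112), while Pdk1 rose by 0.89 ± 0.10 and by 0.41 ± 0.10 (adjusted p = 2.12e-08 and 0.00142). Pdhx, a structural subunit of that complex, rose by 1.13 ± 0.16 at the ID site and fell by 0.51 ± 0.16 at the SC site (adjusted p = 8.73e-07 and 0.0099), but the SC call was lost on the log2(FPKM + 1) scale (adjusted p = 0.088) and without SC saline 5 and 6 (adjusted p = 0.385). Fatty acid oxidation genes fell in 17 of 17 cases at the ID site, whereas at the SC site 9 fell and 1 rose. That split was 4 lower and 7 higher on the log2(FPKM + 1) scale, where 1986 of 13261 genes fell and 5827 rose. Without SC saline 5 and 6 it was 4 lower and 6 higher, and 2547 of 15008 genes fell and 4548 rose. The difference between the sites was called lower for 14 of the 17 and higher for 0, beside 23.0% and 32.8% of all genes. Under those settings it was called lower for 16 and 15, with none higher, beside 5143 of 13261 and 4215 of 15008 genes. Cpt1b, the muscle form of the enzyme that lets long-chain fatty acids in, fell by 3.79 ± 0.47 and by 3.38 ± 0.46 (adjusted p = 1.26e-07 and 2.23e-06). Hadh, an enzyme of the beta-oxidation spiral, fell by 0.94 ± 0.09 in ID gel and rose by 0.43 ± 0.09 in SC gel (adjusted p = 1.2e-09 and 0.00024). The ID value closest to 0 was that of Eci1 (-0.45 ± 0.11, adjusted p = 0.000713).

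Among 12 carriers and uncoupling proteins, 6 fell and 4 rose at the ID site, beside 37.0% and 36.6% of all genes. At the SC site 8 fell and 4 rose, beside 26.1% and 24.7%. Slc25a4, the ADP/ATP carrier of heart and muscle, fell by 2.26 ± 0.24 and by 2.50 ± 0.24, and Slc25a5, the carrier of proliferating and other cells, rose by 0.66 ± 0.13 at each site (adjusted p = 6.07e-05 and 0.000139). Per length, Slc25a4 was 28.1 to 55.0% of the pair in ID gel, against 77.7 to 84.8% in ID saline, and 25.8 to 45.1% in SC gel, against 66.9 to 86.9% in SC saline. Ucp3, the uncoupling protein of muscle, fell by 4.37 ± 0.65 and by 3.91 ± 0.63 (adjusted p = 2.24e-06 and 2.13e-05). Slc25a10, the dicarboxylate carrier, rose by 1.42 ± 0.14 and by 0.66 ± 0.14, and Slc25a1, the citrate carrier, rose by 1.05 ± 0.14 at the SC site (adjusted p = 2.71e-06). Of 25 import and chaperone genes, 12 fell and 3 rose at the ID site, and 11 fell and 1 rose at the SC site. The SC counts were 3 lower and 9 higher on the log2(FPKM + 1) scale, beside 1986 and 5827 of 13261 genes. Without SC saline 5 and 6 they were 3 lower and 6 higher, beside 2547 and 4548 of 15008 genes. Hspa9, the chaperone of the matrix import motor, rose by 1.06 ± 0.11 at the ID site (adjusted p = 5.51e-09) and was 0.20 ± 0.11 at the SC site (adjusted p = 0.115), where it was called at 0.41 ± 0.10 on the log2(FPKM + 1) scale and at 0.37 ± 0.12 without SC saline 5 and 6. Chchd10, a small intermembrane-space protein abundant in muscle, fell by 2.87 ± 0.31 and by 1.91 ± 0.30 (adjusted p = 2.03e-08 and 1.58e-05). Timm9, an import chaperone of the same space, rose by 0.38 ± 0.09 at the SC site (adjusted p = 0.000895).

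**Figure D5:**
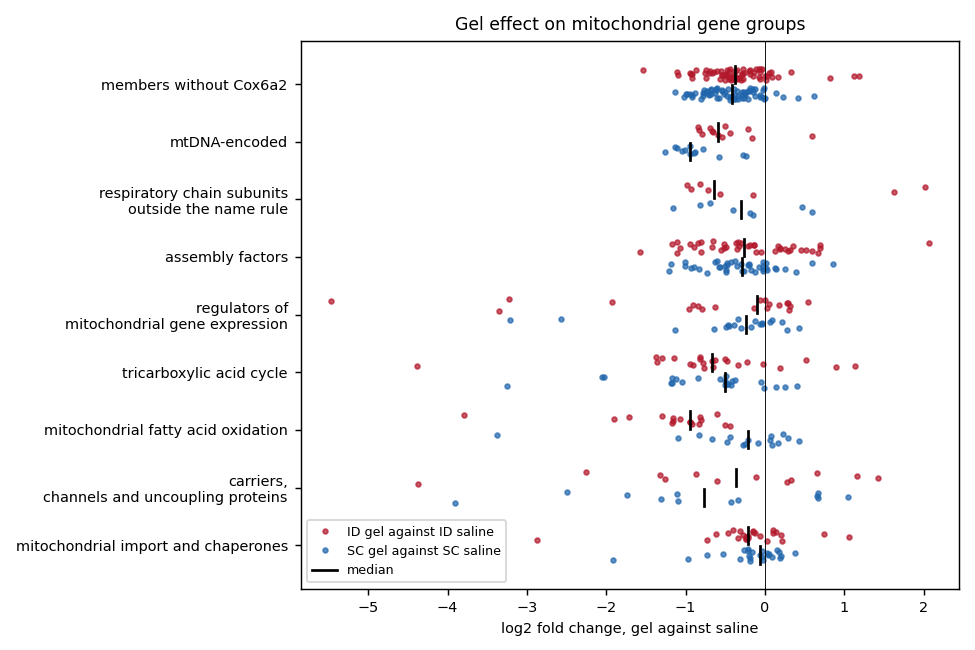
Each point is the log2 fold change of a gene, red for ID gel against ID saline and blue for SC gel against SC saline, and black bars are medians. Members without Cox6a2 lie mostly below 0 at both sites (medians -0.38 and -0.41). Fatty acid oxidation genes lie below 0 at the ID site (median -0.95) and around 0 at the SC site (median -0.22, but 0.02 on the log2(FPKM + 1) scale), and mtDNA-encoded genes have medians of -0.59 at the ID site and -0.95 at the SC site. On the log2(FPKM + 1) scale the SC median of all genes was 0.19.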

How the data were processed

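RNA was measured in 24 libraries of dorsal skin, 6 in each of 4 groups taken from the sample titles. Per the file headers, the deposited table holds the read count of every gene in every library, and beside it the FPKM. The counts were whole numbers, and the authors' FPKM values equalled the count divided by gene length and library total, within 5.11e-13%. The submitters' processing notes list DESeq2 1.12.4, StringTie 1.3.3b, Trimmomatic 0.36 and FastQC 0.11.2, with no role or order. Not given in the sources used here were the aligner, the counting program and its strand setting. The libraries were stranded, per the labels' protocols. Gene names in the table and its Entrez numbers disagreed for 5 members, and 4 member rows shared a name with another, so reads shared between near-identical copies are uncertain there. By Entrez number, another row named Ndufs5 was Ndufs5-ps2 and another row named Atp5mk was Atp5mk-ps2, both names of pseudogenes. The rows named Ndufa7 and Ndufb2 carried the numbers of Cd320 and Adck2, and the row named Cox7a2l2 carried that of Cox7a2.

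Counts were tested in R 4.3.3 with edgeR 4.0.16, and limma 3.58.1 served for alternatives. Filtering low counts by group with filterByExpr at its defaults kept 14763 genes, which included all 70 members. TMM factors ran between 0.845 and 1.224. The 24 libraries entered a single quasi-likelihood model with group means, leaving 20 residual degrees of freedom, and p-values were adjusted by Benjamini-Hochberg over all genes kept. Standard errors are the log2 fold change divided by the root of the F statistic. Alternatives were DESeq2 1.42.0, limma voom with quality weights, RLE size factors, no filter, at least 10 counts in 12 libraries, the groups of a contrast alone, the replicate number as a block, limma on log2(FPKM + 1) and log2(FPKM + 0.1) (genes reaching 1 FPKM in 6 libraries), gel replicates split into 1 to 3 and 4 to 6, an exchange of the saline groups between sites, and each library left out. The scripts were tested on simulated data. The members, gene lists, markers and tests were chosen with earlier results of these data known, and marker and pathway lists are described by counts, not tested as sets. Genes were named by rule: isoforms and their partners, the members of each complex with the highest mean CPM or the highest or lowest log2 fold change, and the extremes of each list. Other members named were chosen after their values were seen.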

Additional observations from a re-analysis of the deposited data

Results flagged for a closer look

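In 9 of 116 groups of 6 libraries, over 29 named members, the highest or lowest library lay far from the others by Dixon's test at the 95% level. Chance gives such a gap in about 1 of 20 groups. Cox6a2 was at 72.6 CPM in ID gel 5 and at 11.6 CPM in SC gel 1, above the other gel libraries of the same site. ID gel 5 was also the highest ID gel library for Atp5f1a (601 CPM) and Ndufs1 (94.9 CPM), and it had the highest muscle marker sum of that group. Cox4i1 reached 399 CPM in ID gel 2. In ID saline, Atp5f1a was low in library 1 (891 CPM), Ndufa2 was low in library 2 (27.3 CPM) and Cox6a1 was high in library 3 (58.5 CPM). Cox4i2 was low in SC gel 1 (1.92 CPM).

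For 8 named members the gel effect differed between the sites in edgeR's test of the difference itself. The ID effect minus the SC effect was 1.25 for Cox4i2, 0.66 for Sdhb, 0.57 for Cox6a1, 0.54 for Ndufb6, 0.50 for Sdhc, 0.49 for Sdhd, 0.40 for Atp5pb and -1.14 for Ndufa4, all on the log2 scale. Without SC saline 5 and 6, those of Sdhb, Sdhc, Sdhd, Ndufb6 and Atp5pb were not called (adjusted p between 0.159 and 0.632). In the FPKM fits only those of Cox4i2 and Ndufa4 kept their call. Without SC saline 2 those of Sdhc, Sdhd, Ndufb6 and Atp5pb were lost.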

How the results depend on the processing

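In ID gel against ID saline, members called higher were 5 with its own groups alone and 11 with the saline groups exchanged between sites, which also gave 18 lower and a median of -0.10, and the median was -0.53 in both FPKM fits. Members lower there were 40 in the main fit, 50 with its own groups alone, 47 with voom and 50 of 69 in the FPKM fits. They were 31 with gel replicates 1 to 3 and 33 with 4 to 6. In SC gel against SC saline, the FPKM fits gave 4 higher, 27 lower and medians of -0.15 (pseudocount 1) and -0.17 (pseudocount 0.1), the exchange a median of -0.72, and SC saline 1 to 4 alone 9 higher, 24 lower and a median of -0.00095. For the difference between sites, members higher were 1 in the FPKM fits, 4 with gel replicates 4 to 6, 55 with the exchange and 2 with SC saline 1 to 4, and members lower were 3 with DESeq2 and with RLE, 2 with voom, 30 in the FPKM fits and 33 with SC saline 1 to 4. Its median was -0.0038 with DESeq2, -0.0051 with RLE, -0.36 and -0.37 in the FPKM fits, 0.64 with the exchange and -0.33 with SC saline 1 to 4. In ID saline against SC saline, members higher were 7 with DESeq2, 30 with voom, 0 with RLE, with no filter and with the 2 groups alone, 4 with at least 10 counts in 12 libraries, 1 with the replicate block, 16 and 13 in the FPKM fits and 55 with SC saline 1 to 4, where the median was 0.51. In ID gel against SC gel, members higher were 13 in the FPKM fits, 22 with gel replicates 1 to 3 and 21 with 4 to 6, members lower 7 in the FPKM fits and 0 with gel replicates 4 to 6, and the median was -0.023 in both FPKM fits and 0.17 with the 2 groups alone.

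With each library left out in turn, the difference between sites had 4 to 12 members higher and 1 to 6 lower with a median of -0.090 to 0.10, and ID saline against SC saline had 0 to 23 higher. Cox4i1 ranged over -0.0083 to 0.056 at the ID site and -0.11 to 0.083 at the SC site, and at the SC site Cox4i2 over -0.14 to 0.028, Cox7a2l2 over -0.15 to 0.11 and Cox7b over -0.13 to 0.15.

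Signs turned for members near 0. With the FPKM fits, pseudocount 1 before 0.1, Cox4i1 was -0.12 and -0.12 at the ID site and 0.20 and 0.20 at the SC site, Ndufs5 was -0.091 and -0.093 at the ID site, and at the SC site Cox4i2 was 0.077 and 0.095, Cox7a2l2 0.22 and 0.22, Cox7b 0.28 and 0.29, Ndufb6 0.045 and 0.048 and Uqcrh 0.031 and 0.033. With SC saline 1 to 4 the SC values were 0.36 for Cox4i1, 0.091 for Cox4i2, 0.050 for Cox6c, 0.40 for Cox7a2l2, 0.52 for Cox7b, 0.22 for Ndufb6, 0.071 for Ndufc1, 0.19 for Uqcrh and 0.019 for Uqcrq. With the saline groups exchanged the ID values were 0.073 for Cox5a, 0.26 for Cox7a2l2, 0.030 for Sdhb, 0.049 for Sdhd and 0.12 for Uqcrq, the SC value was -0.16 for Ndufs5, and the site differences were 0.34 for Cox7b and 0.41 for Ndufc1. Cox4i1 at the ID site was -0.0016 with DESeq2, -0.0025 with RLE and -0.017 with gel replicates 4 to 6. Cox7b at the SC site was 0.079 with voom, 0.018 with the replicate block and 0.032 with gel replicates 4 to 6, where Cox4i2 was 0.049. With gel replicates 1 to 3, Cox7a2l2 was 0.10 at the SC site and Ndufa3 was 0.14 in ID gel against SC gel. With the saline groups exchanged, the ID calls of Uqcrfs1, Uqcrh, Ndufc1 and Eci1 and the SC calls of Hadh and Higd1a were lost. The cause of these changes was not tested.

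The replicate block gave 3 higher and 40 lower at the ID site and 2 higher and 41 lower at the SC site. Same-numbered libraries correlated by -0.241 to 0.421, above 0.1 in 13 of 36 pairs, and the best match had the same number in 16 of 72 cases, so the numbers were not treated as pairs. Low counts limit Cox6a2 in gel libraries, Cox7a1 and Esrrg, whose fold changes have wide errors.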
